A study of Mus musculus with 768 samples.

Results

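The genes described here were 9 transcripts known as secretory products of the mammary epithelium: the milk protein genes *Csn1s1*, *Csn2*, *Csn3*, *Wap* and *Lalba*, and *Wfdc18*, *Lcn2*, *Ltf* and *Spp1*. They were picked by symbol from the 24490 genes of the count table, with earlier results of these wells known, so their levels are given as descriptions and no test is made on the list. Single mesenchymal cells were sorted from mammary tumors of 14-week-old FVB/N-Tg(MMTVPyVT)634Mul/J mice as negative for EpCAM, CD45, CD31 and NG2, 1 cell per well, and each well was read by Smart-seq2. The 2 tumors filled 1 plate of 384 wells each, so tumor and plate cannot be told apart. Every well came from the same kind of animal and carried the same oncogene, driven by the MMTV promoter, which is active in mammary epithelium, and there was no untreated or wild-type group. All 768 wells were used, including 41 wells (11 in tumor 1 and 30 in tumor 2) with under 10000 reads outside the ERCC spike-ins, which are called low-read wells.

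Caseins, whey acidic protein and alpha-lactalbumin are made by luminal alveolar cells of the mammary gland under prolactin, through STAT5 and the transcription factor ELF5, and make up most of the protein of mouse milk. Lipocalin 2 and lactoferrin are iron-related defence proteins that are secreted into milk and are also stored in neutrophil granules. Osteopontin, the product of *Spp1*, is secreted by epithelium, by macrophages, by bone cells and by fibroblasts. Reads of these genes in a sort that removes EpCAM-positive and CD45-positive cells were therefore followed by tumor, by cell population and by the depth of the well.

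A quality rule on 5 metrics kept 714 wells, of which 1 had under 10000 reads and is counted among the low-read wells. Clustering of the kept cells without the 9 genes gave 491 vascular, 141 matrix, 42 cycling and 39 developmental CAF-like cells, named from lists of markers, and 14 other wells were left out. In the developmental cluster 79.5% of cells carried enough developmental markers to count for that name, and 59.0% carried enough matrix markers to count for the matrix name. A tighter clustering moved 1 of its cells in tumor 1 and 9 in tumor 2 to the matrix cells. Median reads per well outside the spike-ins were 196318 and 190793 in the vascular CAF-like cells of tumors 1 and 2, and 490 and 1645 in the low-read wells, where the spike-ins took a median of 98.7% and 96.5% of reads. Levels summed over wells are given as CPM, a gene's reads per 1000000 reads outside the spike-ins. Reads were not collapsed to molecules, so binomial intervals below are exact, at 95%, and cover counting error only.

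Promoter windows are shown for the 2 caseins with almost no reads and for 3 widely read members, to set their letters beside their levels. Of the 9 genes, 8 were found in the RefSeq promoter table for GRCm38.p6, with 2 entries for *Spp1* and none for *Csn3*. The windows below hold the 250 bases before the annotated start, 5′ to 3′ on the gene's strand: chr5:87665958-87666207 (plus strand) for *Csn1s1*, chr5:87699426-87699675 (minus) for *Csn2*, chr11:83708754-83709003 (plus) for *Wfdc18*, chr2:32387740-32387989 (minus) for *Lcn2* and chr5:104434861-104435110 (plus) for the first *Spp1* entry. Capitals mark matches, on either strand, to the letters TTCNNNGAA (a STAT site), TTNNGNAA (a C/EBP site), a RUNX site or a TATA box, the last 2 spelled out after the sequences.
Csn1s1: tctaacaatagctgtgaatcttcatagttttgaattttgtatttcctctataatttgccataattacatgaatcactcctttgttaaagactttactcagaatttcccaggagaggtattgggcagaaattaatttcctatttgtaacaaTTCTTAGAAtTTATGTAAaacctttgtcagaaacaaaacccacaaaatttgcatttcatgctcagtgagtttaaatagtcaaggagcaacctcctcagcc
Csn2: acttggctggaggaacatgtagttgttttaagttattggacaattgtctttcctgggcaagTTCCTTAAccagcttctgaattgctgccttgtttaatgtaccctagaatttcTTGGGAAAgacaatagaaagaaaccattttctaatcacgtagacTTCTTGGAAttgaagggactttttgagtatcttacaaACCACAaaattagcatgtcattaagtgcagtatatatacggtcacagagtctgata
Wfdc18: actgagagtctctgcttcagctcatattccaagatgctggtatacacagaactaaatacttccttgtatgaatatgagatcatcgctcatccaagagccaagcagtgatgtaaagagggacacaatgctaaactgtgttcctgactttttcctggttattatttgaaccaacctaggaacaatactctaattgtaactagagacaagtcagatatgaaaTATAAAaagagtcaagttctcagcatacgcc
Lcn2: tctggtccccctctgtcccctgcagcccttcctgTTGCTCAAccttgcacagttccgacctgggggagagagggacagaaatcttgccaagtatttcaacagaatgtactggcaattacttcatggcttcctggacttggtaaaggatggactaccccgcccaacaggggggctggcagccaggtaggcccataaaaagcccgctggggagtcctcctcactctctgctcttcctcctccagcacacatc
Spp1: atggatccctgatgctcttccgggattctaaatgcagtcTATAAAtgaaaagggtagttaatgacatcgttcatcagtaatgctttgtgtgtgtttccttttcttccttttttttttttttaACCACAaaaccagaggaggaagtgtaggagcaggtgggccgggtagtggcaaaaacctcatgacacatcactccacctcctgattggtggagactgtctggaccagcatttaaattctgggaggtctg

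The STAT letters were found in *Csn1s1*, at bases -100 to -92 from the start, and in *Csn2*, at bases -93 to -85, and in none of the other 7 entries. They occur in 7.02% of 32841 mouse promoter windows of this length. The C/EBP letters, present in 36.9% of all windows, stood beside the STAT letters in *Csn1s1* (bases -90 to -83), at bases -189 to -182 and -137 to -130 of *Csn2* and at bases -216 to -209 of *Lcn2*. They also matched once in *Wap* and at 2 places each in *Ltf* and the other *Spp1* entry, whose windows are not printed. The TATA box letters TATAAA, present in 12.4% of windows, lay at bases -31 to -26 of *Wfdc18* and -211 to -206 of the first *Spp1* entry. The RUNX letters TGTGGT, read on either strand and present in 14.0% of windows, were in *Csn2* and in the first *Spp1* entry, and an NF-kappaB motif, present in 3.90% of windows, matched no member's window. No 2 matches overlapped. The 2 genes with the STAT letters were the 2 caseins with almost no reads, as follows. *Wap* and *Lalba*, also read in few wells, had no STAT letters, and *Csn3*, the widely read casein, had no window. The letters thus did not mark the members with few reads as a group. A match is a description of the letters and not evidence of binding.

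*Csn2*, the beta-casein gene on chr5:87692619-87699429 (minus strand), had no read in any well of either plate, and for 0 of 384 wells the exact upper limit is 0.956% of wells per plate, or 0.781% when 3 counts are taken as the floor. *Csn1s1*, the alpha-S1-casein gene on chr5:87666208-87682578 (plus), was read in 2 wells of each tumor, with 22 and 4 reads in tumor 1 and 17 and 2 in tumor 2. *Wap*, whey acidic protein (chr11:6635483-6638654, minus), was read in 1 well of tumor 1 with 1 read and in 8 wells of tumor 2, where the highest wells held 20, 20 and 13 reads. *Lalba*, alpha-lactalbumin, the regulatory subunit of lactose synthase (chr15:98480400-98482934, minus), was read in 15 wells of tumor 1 and 25 of tumor 2, with a median of 3 reads in the wells that had any and a highest well of 13 and 25 reads. These 4 milk genes together were thus rare in both plates.

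*Csn3*, kappa-casein, which keeps the casein micelle in solution (chr5:87925579-87932550, plus), stood apart from the other milk genes. It was read in 96 wells of tumor 1, or 25.0% (20.8 to 29.6), and in 216 wells of tumor 2, or 56.3% (51.1 to 61.3), with 6303 and 25470 reads in all. A read of any of the 5 milk genes was found in 27.1% of wells of tumor 1 and 57.3% of tumor 2, so nearly all wells with a milk read were wells with *Csn3*. *Wfdc18*, a small secreted protein with a whey acidic protein domain (chr11:83709004-83711360, plus), was read in 69 wells of tumor 1 (17.97%) and 180 of tumor 2 (46.9%). *Lcn2*, lipocalin 2, which binds bacterial siderophores (chr2:32384637-32387739, minus), was read in 93 (24.2%) and 235 (61.2%). *Spp1*, osteopontin, a ligand of integrins and CD44 (chr5:104435111-104441053, plus), was read in 226 (58.9%) and 300 (78.1%), and *Ltf*, lactoferrin, an iron-binding protein (chr9:111019292-111042766, plus), in 4 and 8. At least 1 of the 9 genes had a read in 302 wells of tumor 1 and 369 of tumor 2, which left 82 and 15 wells with none.

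Within the wells that had reads, most reads came from few wells. The well with most reads held 27.8% of all *Csn3* reads over both tumors, 28.6% of *Wfdc18*, 15.1% of *Spp1* and 7.48% of *Lcn2*, and the 10 highest wells held 67.5%, 59.2%, 54.9% and 45.6%. *Lcn2* was thus the least concentrated of the 4 widely read members by either measure over both tumors together. Within each tumor this held for the highest well only. In tumor 1 the 10 highest wells held 81.11% of *Lcn2* reads, against 75.48% of *Spp1*, 76% of *Csn3* and 85.93% of *Wfdc18*. In tumor 2 they held 52.55% of *Lcn2* reads, against 49.41% of *Wfdc18*, 65.95% of *Spp1* and 69.56% of *Csn3*. A read in many wells and a high level in few wells were 2 different patterns of the same gene, and both are followed below.

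**Figure D1:**
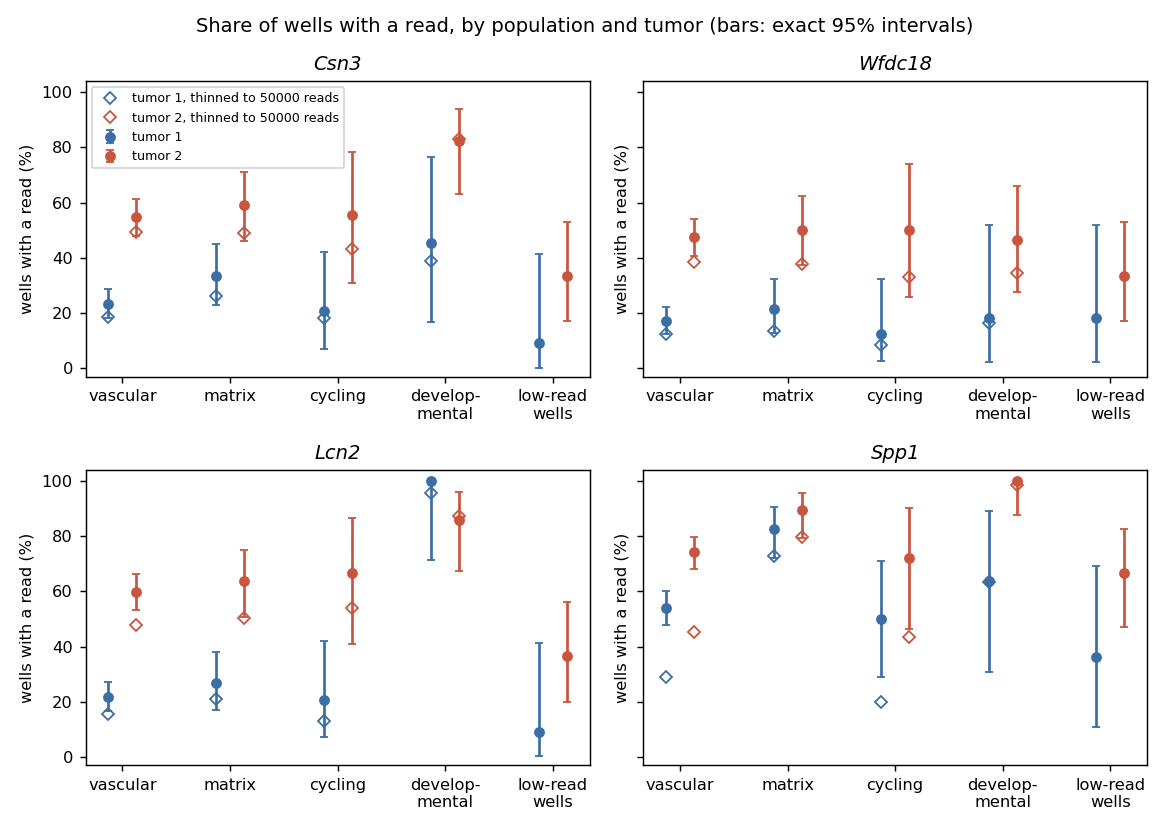
Percent of wells with at least 1 read (y axis) of *Csn3*, *Wfdc18*, *Lcn2* and *Spp1* in 4 CAF-like populations and in the low-read wells (x axis), for tumor 1 (blue) and tumor 2 (red); filled points carry exact 95% binomial intervals and open diamonds give the share expected after thinning each cell to 50000 reads. In the vascular CAF-like cells every filled point of tumor 2 lies above that of tumor 1, and *Lcn2* in developmental CAF-like cells lies at 100% and 85.7%.

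For *Csn3*, *Wfdc18* and *Lcn2* the share of cells with a read differed more between the plates than between the vascular, matrix and cycling CAF-like cells of 1 plate. Among vascular CAF-like cells, a pericyte-like type not known to make milk protein, whose median depths are given above, *Csn3* was read in 23.2% of 259 cells in tumor 1 and 54.7% of 232 in tumor 2. *Lcn2* was read in 21.6% and 59.9% of them, *Wfdc18* in 16.99% and 47.4%, and *Spp1* in 54.1% and 74.1%. When each cell was thinned to 50000 reads, leaving out 12 and 14 vascular CAF-like cells below that depth, the shares were 18.7% and 49.4% for *Csn3*, 15.7% and 47.9% for *Lcn2*, 12.3% and 38.6% for *Wfdc18* and 29.0% and 45.4% for *Spp1*.

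Of the 4 members with enough reads to be listed, *Csn3* (2.65-fold), *Wfdc18* (3.14-fold) and *Lcn2* (3.06-fold) had a thinned share at least 2-fold higher in tumor 2, and *Spp1* did not (1.57-fold). Among all 10123 genes taken the same way, 1.16% were at least 2-fold higher in tumor 2. Shares in other populations are given beside these vascular shares below. With 1 tumor per plate no test of this difference can be made, and whether it belongs to the animal, the sort or the plate cannot be told apart.

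**Figure D2:**
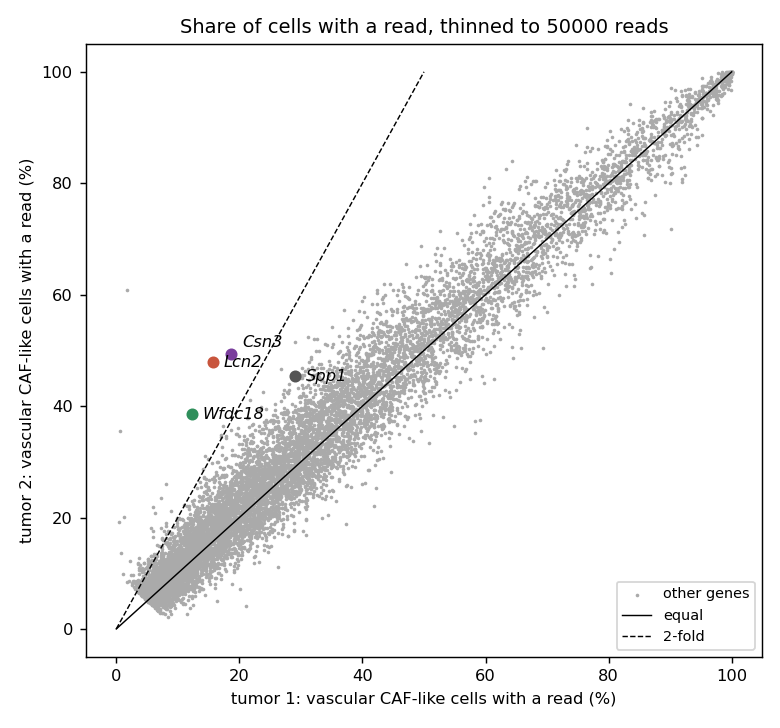
Percent of vascular CAF-like cells with a read after thinning to 50000 reads, in tumor 1 (x axis) and tumor 2 (y axis), 1 grey point per gene, with 4 members coloured; the solid line marks equal shares and the dashed line a share 2-fold higher in tumor 2. *Csn3*, *Wfdc18* and *Lcn2* lie above the dashed line, together with 1.16% of all genes, and *Spp1* lies between the lines.

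*Lcn2* was highest in the developmental CAF-like cells, the population marked by *Mia*, *Scrg1*, *Chad* and *Sox10*. In tumor 1 all 11 such cells had *Lcn2* reads, from 4 to 1210 with a median of 352. In tumor 2, 24 of 28 (85.7%, interval 67.3 to 96.0) had reads, with a lowest of 0, a median of 214.5 and a highest of 1513. The median vascular CAF-like cell held 0 and 2 reads, and the highest held 137 and 425, so the ranges of the populations overlapped. Both of these wells held luminal reads. K10 of tumor 1 had 201 *Krt8*, 180 *Krt18* and 4 *Epcam* reads and only 4 of the pericyte marker *Rgs5*, so its markers went against the population it was clustered with, and M13 of tumor 2 had 58 *Epcam*, 41 *Krt18* and 661 *Rgs5* reads. On the log2(RPKM + 1) scale, mean levels were 9.34 and 8.54 in the developmental cells of tumors 1 and 2, or 8.94 ± 0.56 (SD, n = 2 tumors). Matrix cells stood at 2.58 ± 1.58, cycling cells at 2.40 ± 1.88 and vascular cells at 2.32 ± 1.71. Developmental cells lay 7.88 and 4.85 above matrix cells within each tumor, while the order of the other 3 populations was not the same in both tumors. In the developmental cells of the tighter clustering the *Lcn2* mean was 9.68 and 10.4.

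Summed over cells, *Lcn2* took 1607 and 1630 CPM in developmental CAF-like cells, against 15.7 and 77.5 in the other kept cells, or 102-fold and 21.04-fold. This rested on no single well: without the well with most reads in each tumor the ratios were 84.3 and 18.95, and without the wells that held an *Epcam* read they were 81.7 and 22.3. A level at least 2-fold higher than in the other kept cells in both tumors was found for 9.38% of all 12422 genes compared, and among the 5 members with enough reads for *Csn3*, *Wfdc18*, *Lcn2* and *Ltf*. These populations were clustered on the other genes of the same cells, so the comparison is a description.

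*Csn3* was also highest in the developmental CAF-like cells, but on fewer cells. In tumor 1, 5 of 11 (45.5%, interval 16.7 to 76.6) had a read, with a median over all 11 of 0 reads and a highest of 4137, and that well held 4137 of their 4281 reads. In tumor 2, 23 of 28 (82.1%, interval 63.1 to 93.9) had a read, with a median of 53 and a highest of 8833. CPM values were 1625 and 3268, against 25.1 and 99.1 in the other kept cells, a ratio of 64.6 and 33.0. Without the highest well of each tumor the ratio was 2.60 in tumor 1 and 18.5 in tumor 2, so the level in tumor 1 came mostly from 1 cell. That cell also held 15 *Epcam* reads, and without *Epcam* wells the ratios were 2.96 and 39.0. Mean log2(RPKM + 1) was 5.19 ± 2.95 in developmental, 2.38 ± 1.24 in matrix, 2.22 ± 1.42 in vascular and 1.68 ± 0.98 in cycling cells (n = 2 tumors), the same order in both tumors. Taken within each tumor, developmental cells lay 1.60 and 4.02 above matrix cells, or 2.81 ± 1.72, matrix cells 0.28 and 0.027 above vascular cells, and vascular cells 0.24 and 0.86 above cycling cells.

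The 2 tumors therefore shared the direction for *Csn3* but not its breadth. Under the tighter clustering, which kept 10 and 19 developmental cells, 5 and 18 of them had a *Csn3* read. *Lalba*, which had too few reads for the fold comparison between populations, was found in 1 of 11 and 3 of 28 developmental cells, against 6 of 259 and 10 of 232 vascular and 6 of 75 and 7 of 66 matrix cells. *Csn1s1* reads lay in vascular cells apart from 2 reads in 1 developmental cell of tumor 2, and the 4 wells with most *Wap* reads were 3 developmental cells and 1 cycling cell of tumor 2.

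*Wfdc18* had a high sum in the developmental CAF-like cells without being read in more of them. A read was found in 2 of 11 (18.2%) and 13 of 28 (46.4%), against 16.99% and 47.4% of vascular, 21.3% and 50.0% of matrix and 12.5% and 50.0% of cycling cells. The median developmental cell held 0 reads in both tumors, while the highest held 1985 and 705. Its sum of 755 and 240 CPM was 68.0-fold and 6.99-fold that of the other kept cells. Without the highest well the ratio was 0.213 and 3.38, and without wells with an *Epcam* read 0.393 and 3.101, so in tumor 1 the direction turned. On the log2(RPKM + 1) scale the mean difference was 0.72 ± 0.21 (SD, n = 2 tumors) with all cells and -0.38 without the *Epcam* wells.

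*Ltf* reads lay in 12 wells in all. In tumor 1 they fell in 4 wells, with 76, 32 and 26 reads in the highest, and in tumor 2 the highest 3 wells held 28, 26 and 23 of its 85 reads. All 76 reads in developmental cells of tumor 1 came from 1 cell, and 26 of 27 in tumor 2 from 1 other. Both cells also held *Epcam* reads, and without *Epcam* wells no *Ltf* read was left in the developmental cells of either tumor.

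**Figure D3:**
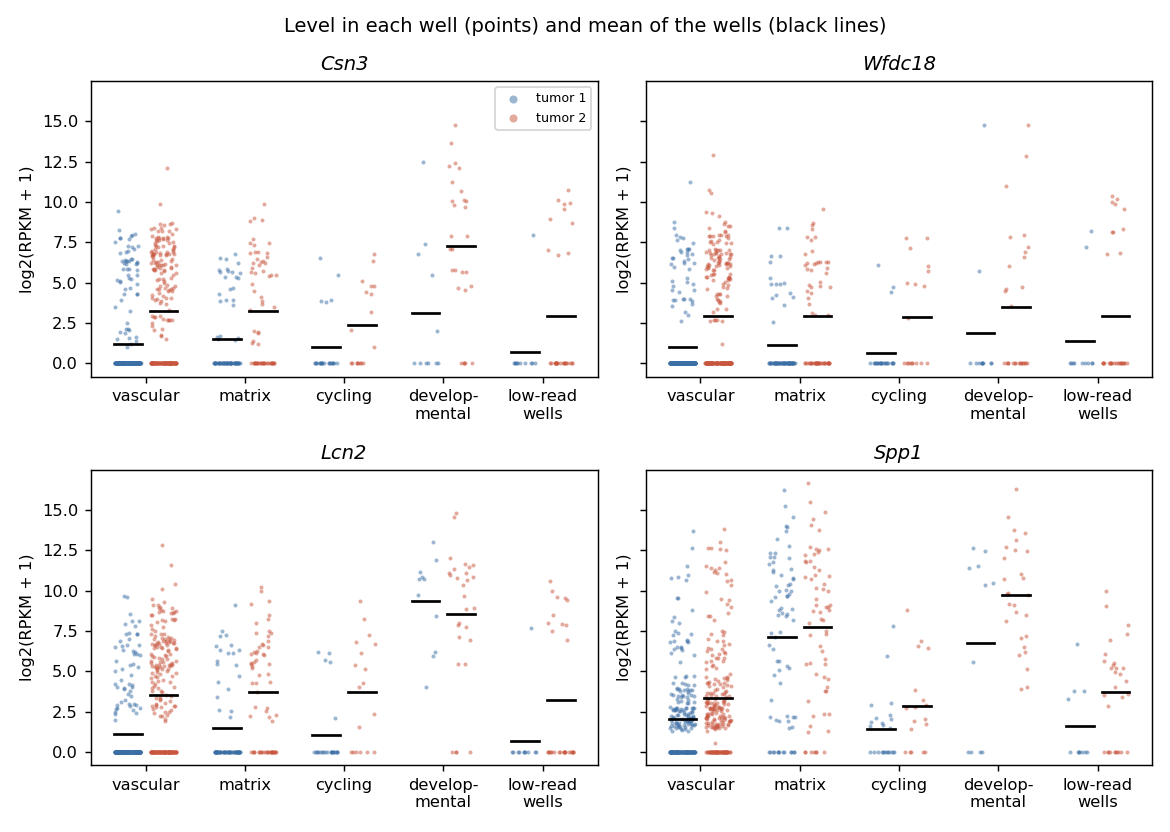
Level of *Csn3*, *Wfdc18*, *Lcn2* and *Spp1* as log2(RPKM + 1) (y axis) in each well (points, blue for tumor 1 and red for tumor 2) by population (x axis), with the mean of the wells as a black line. *Lcn2* means are 9.34 and 8.54 in developmental CAF-like cells, while *Spp1* means are 7.12 and 7.76 in matrix CAF-like cells.

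Some of the wells that were high for several members at once also held luminal marker reads. The developmental cell with most members (plate position K4, tumor 2, 46247 reads) held 8 of the 9, with 2040 *Csn3*, 923 *Lcn2*, 705 *Wfdc18*, 26 *Ltf*, 16 *Lalba* and 12 *Wap* reads, beside 155 reads of *Epcam*, which encodes the surface protein used to gate epithelial cells out. Another cell of tumor 2, at B4, held 1270 *Lcn2*, 398 *Csn3* and 20 *Wap* reads with 141 *Epcam* reads. In tumor 1 the cell at P7 held 1985 *Wfdc18*, 922 *Lcn2* and 76 *Ltf* reads with 568 *Epcam* reads, the most of any well. High *Csn3* and *Lcn2* also occurred with no *Epcam* read: the tumor 2 cell at H23 held 8833 *Csn3* and 1513 *Lcn2* reads with 5052 reads of *Trf*, the transferrin gene, and 0 of *Epcam*. The tumor 2 cells at P2, with 1538 *Csn3* and 244 *Lcn2* reads, and at C10, with 1059 and 972, held 0 reads of *Epcam*, *Krt8* and *Krt18*.

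Over the whole luminal marker list, 16 of 16 genes had reads in kept cells. Summed over the list, they took 2364 and 842 CPM in developmental cells of tumors 1 and 2, and between 10.7 and 57.5 in the other 3 populations of either tumor. *Epcam* stood at 249 and 75.5 CPM in developmental and 1.19 and 9.65 in vascular cells, *Krt18* at 97.9 and 40.7 against 6.48 and 18.8, and *Spint2* at 371 and 160 against 1.69 and 8.24. *Cd24a*, which was also one of the markers that named the population, stood at 674 and 245 against 2.56 and 4.36. *Perp*, another of these markers, stood at 528 and 155.5 against 6.34 and 1.52, or 442 and 68.1 against 2.64 and 0.552 without the well with most of its reads. Much of the list's sum in developmental cells thus came from genes that named the population. The cell at P7 held 568 of the 656 *Epcam* and 234 of the 258 *Krt18* reads of the developmental cells of tumor 1. Without the well with most reads of each gene *Epcam* stood at 34.6 and 48.4 CPM in developmental cells and *Krt18* at 9.45 and 24.9, and the list, without the well with most of its reads, at 1558 and 755. In vascular cells of tumor 1 the list stood at 14.1 without K10, *Krt18* at 3.02 without K10 and *Epcam* at 0.677 without K9. The part of luminal transcripts in the levels of *Wfdc18*, *Ltf*, *Csn3* and *Lcn2* was not tested beyond the values without *Epcam* wells given above.

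Wells with and without *Epcam* reads were also compared over all kept cells, 18 and 351 in tumor 1 and 37 and 307 in tumor 2. *Wfdc18* was read in 27.8% of *Epcam* wells against 17.1% of the others in tumor 1 and in 67.6% against 45.6% in tumor 2. *Lcn2* was read in 38.9% against 24.2% and 70.3% against 62.2%. *Csn3* was read in 22.2% against 25.9% in tumor 1 and 75.7% against 55.7% in tumor 2, so its direction differed between the plates.

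Markers of blood cells were low in kept cells. Of 13 immune marker rows 11 had any read in kept cells, and their sum lay between 0.212 and 17.5 CPM over the 4 populations and both tumors, with *Cd3e* and *Ms4a1* at 0. Neutrophil granule genes, listed because neutrophils also store both proteins, had reads for 6 of 9 rows, and their sum lay between 0 and 36.5 CPM over the populations of either tumor. It was 0 and 11.9 CPM in developmental and 29.8 and 36.5 in matrix cells. *Mmp9*, the highest gene of the list, which other cell types also make, stood at 28.5 and 28.8 CPM in matrix and 3.92 and 22.3 in vascular cells, and at 14.4 and 18.8 and at 0.0386 and 11.3 without the well with most of its reads. The list had *Ngp*, *Elane* and *Retnlg* at 0 in kept cells of both tumors.

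*Spp1* had another pattern. Its highest levels lay in the matrix CAF-like cells, the population marked by *Dcn* and *Pdgfra*, and in the developmental cells. Matrix cells held from 0 to 49058 reads with a median of 154 in tumor 1, and from 0 to 44882 with a median of 110 in tumor 2, and 82.7% and 89.4% of them had a read. Developmental cells held from 0 to 2641 with a median of 626 and from 2 to 10347 with a median of 224. Vascular cells held a median of 1 and 1.5 reads, although their highest wells held 1971 and 6047. Mean log2(RPKM + 1) was 8.25 ± 2.099 in developmental and 7.44 ± 0.45 in matrix cells, whose difference was -0.35 in tumor 1 and 1.98 in tumor 2, and 2.704 ± 0.91 in vascular and 2.14 ± 0.99 in cycling cells (n = 2 tumors). In the developmental cells of the tighter clustering the *Spp1* mean was 6.30 and 8.90, against 6.77 and 9.735 in all developmental cells.

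The matrix cells exceeded the other kept cells by 4.37 ± 0.80 on the log2(RPKM + 1) scale (SD, n = 2 tumors), and by 21.8-fold and 5.83-fold in CPM. Without the highest well of each tumor the ratios were 13.6 and 3.62. Of the 5 members compared, *Spp1* alone was at least 2-fold higher in matrix than in other kept cells in both tumors, as were 7.61% of all genes. In vascular cells 0 of the 5 were, against 6.41% of all genes. *Spp1* alone made up 99.2% and 97.1% of the reads of the 9 genes in matrix cells, 72.7% and 72.0% in vascular cells, 43.1% and 57.8% in developmental cells and 10.5% and 15.9% in low-read wells.

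Of the 526 wells with a *Spp1* read over both tumors, 253 (48.1%) held from 1 to 3. The 2 wells with most reads, C16 in tumor 1 with 49058 and G17 in tumor 2 with 44882, held 34.5% and 24.7% of all *Spp1* reads of their tumor. Wells in the plate row of the highest well had a *Spp1* read in 22 of 23 cases (95.7%) on each plate and wells in its column in 14 of 15 (93.3%), against 54.8% and 76.2% of the 345 wells that shared neither. Wells in the row or column of the highest well thus had a *Spp1* read more often than the others. Other lines were as full or fuller: row A of tumor 1 had a read in 95.8% of wells, and row M and column 16 of tumor 2 in 100%. Row A of tumor 1 itself held a high well, A2 with 16488 *Spp1* reads.

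The same difference was found among vascular CAF-like cells when all wells over 5000 *Spp1* reads, 6 in tumor 1 and 9 in tumor 2, were taken. Cells in the row or column of such a well had a *Spp1* read in 88 of 122 (72.1%) and 110 of 132 (83.3%), and cells that shared neither in 52 of 137 (38.0%) and 61 of 99 (61.6%). Matrix cells that shared no line with such a well still had a read in 27 of 37 (73.0%) and 18 of 22 (81.8%), and developmental cells in 4 of 8 and 9 of 9. *Spp1* was not alone in this: over every gene with a well of at least 5000 reads that was read in under 90% of the plate, the share near the highest well minus the share elsewhere had a median of 12.6 percentage points over 12 genes in tumor 1 and 13.8 over 19 genes in tumor 2. For *Spp1* the difference was 39.9 and 18.5 points and for *Csn3* in tumor 2 it was 1.95 points. What links wells of 1 row or column was not tested.

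The other 3 members set beside *Spp1* did not show the pattern on both plates, although the row and column shares of *Lcn2* and *Wfdc18* lay above the rest in tumor 1. *Csn3* had a read in 43.5% and 78.3% of wells in the row of its highest well, in 20% and 26.7% of those in its column and in 23.8% and 55.9% of the rest. *Lcn2* was read in 39.1% and 69.6% of the row, 26.7% and 60.0% of the column and 22.9% and 60.6% of the rest. For *Wfdc18* the values were 30.4% and 34.8% in the row, 20% and 46.7% in the column and 16.8% and 47.5% elsewhere. Of these 4 members, *Spp1* was the one whose row and column shares both lay above the rest on both plates.

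**Figure D4:**
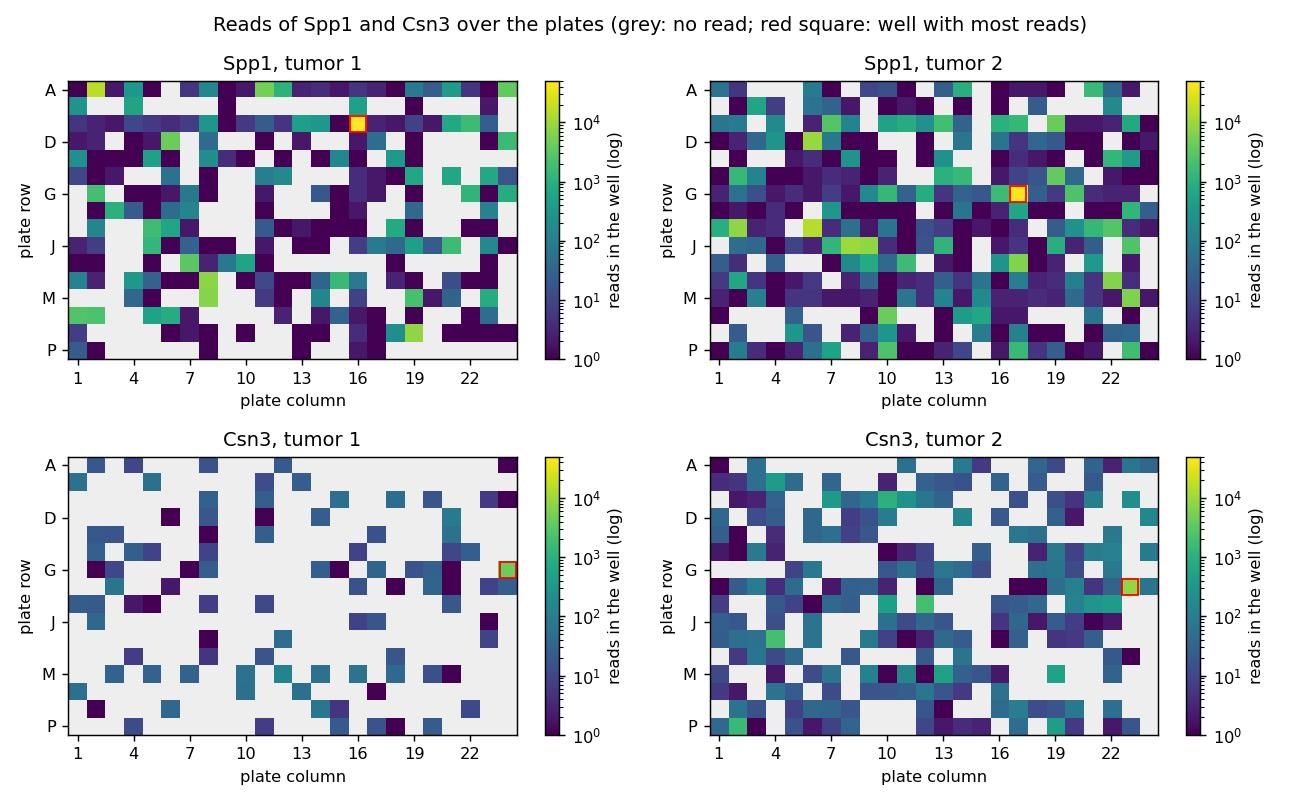
Reads per well (colour, log scale, grey where there was no read) of *Spp1* (top) and *Csn3* (bottom) over the rows and columns of the 2 plates, with a red square on the well with most reads. For *Spp1* the row and column of that well are filled in 22 of 23 and 14 of 15 wells on each plate, while for *Csn3* its column is filled in 20% and 26.7%.

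The low-read wells held few member reads in number, and some members were high there relative to all reads. *Csn3* was read in 1 of 11 low-read wells of tumor 1 and 10 of 30 of tumor 2, with 20 and 344 reads in all. *Wfdc18* was read in 2 and 10, *Lcn2* in 1 and 11, *Spp1* in 4 and 20 and *Lalba* in 0 and 3 of these wells. *Csn3* stood at 1096 and 4195 CPM in low-read wells, against 76.4 and 346 in the kept cells, but per 1000 spike-in reads it stood at 0.0403 and 0.294 against 0.527 and 2.55. For *Csn3* the low-read wells were thus higher relative to all reads and lower relative to the spike-ins. *Spp1* was lower in them relative to all reads too, at 219 and 1939 CPM against 1728 and 2513 in the kept cells.

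Reads summed per tumor over low-read wells and over kept cells were compared with edgeR's quasi-likelihood test. Of 13392 genes tested 28 (0.209%) passed an adjusted p of 0.05, all higher in low-read wells, and none was one of the 6 members tested, while 2255 genes, and among the members *Lalba*, *Wfdc18*, *Lcn2* and *Csn3*, had an unadjusted p under 0.05. *Lalba* had a log2 fold change of 6.49 (SE 1.11, edgeR adjusted p = 0.0671), *Wfdc18* 5.71 (SE 1.56, edgeR adjusted p = 0.227), *Lcn2* 4.52 (SE 1.46, edgeR adjusted p = 0.254), *Csn3* 4.24 (SE 1.38, edgeR adjusted p = 0.254) and *Spp1* -0.31 (SE 1.24, edgeR adjusted p = 0.861). *Ltf* had no read in low-read wells, and *Csn1s1*, *Csn2* and *Wap* did not pass the filter of this fit. The median over all genes was -2.78 in this fit and -9.04 with the spike-in totals as library size. On that scale every tested member's fold change was negative, and *Csn3* (-3.18, edgeR adjusted p = 0.0308), *Lcn2* (-2.88, edgeR adjusted p = 0.0425), and *Spp1* (-7.69, edgeR adjusted p = 0.00164) were called lower in low-read wells, as were 13232 of all 13416 genes tested on it. *Ltf* (edgeR adjusted p = 0.00373) and *Csn1s1* (edgeR adjusted p = 0.0321) were also called, but had 0 reads in low-read wells, so no fold is given for them. *Lalba* had no read in low-read wells of tumor 1, so its value rests on tumor 2. Without tumor 2 the log2 fold changes, then plain differences of log2 CPM with no fit and no test, were 2.54 for *Wfdc18*, 2.46 for *Lcn2*, 3.42 for *Csn3* and -3.40 for *Spp1*. Without tumor 1 *Spp1* stood at 0.36. The positive values without tumor 2 rested on 1 low-read well of tumor 1, which held all 20 *Csn3*, all 9 *Lcn2* and 4 of 5 *Wfdc18* reads.

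With the tumor as a block the test called 0 genes (204 at an unadjusted p under 0.05), and the adjusted p of all 6 members was 0.949. DESeq2 called 878 genes, among them *Lalba* (DESeq2 adjusted p = 4.67e-10), *Wfdc18* (0.00121), *Lcn2* (0.0179) and *Csn3* (0.0185). The member calls thus depended on the tool and on the scale. The low-read wells of tumor 2 also held 107706 CPM of red cell genes, mostly *Hbb-b2+Hbb-bt*, against at most 2.13 in any kept population, and luminal markers at 2426 against 842 in developmental cells of that tumor. The low-read wells of tumor 1 held 0 red cell reads and luminal markers at 219 CPM, against 2364 in its developmental cells. The part of either list in the member values of these wells was not tested.

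**Figure D5:**
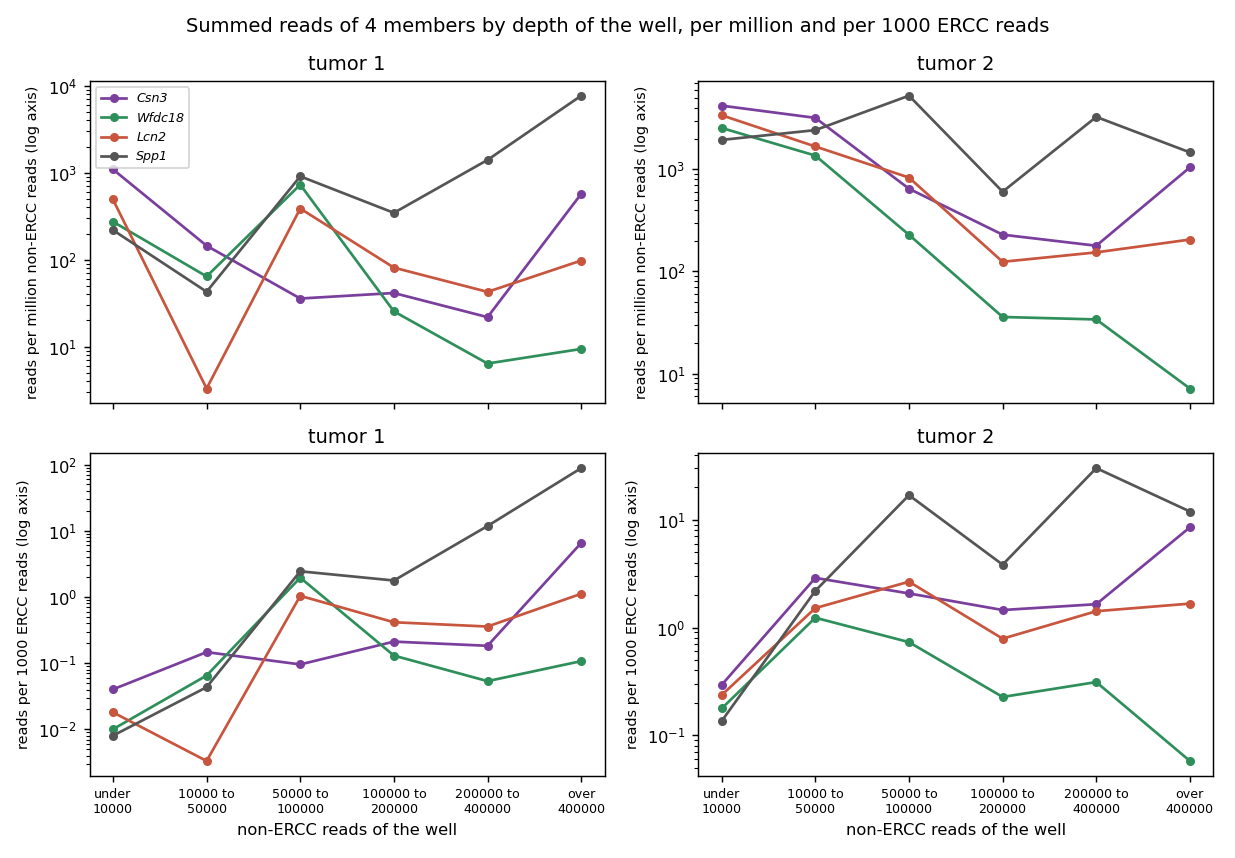
Summed reads of *Csn3*, *Wfdc18*, *Lcn2* and *Spp1* in wells grouped by depth (x axis, reads outside the spike-ins), as CPM (top) and per 1000 spike-in reads (bottom), on log axes, for tumor 1 (left) and tumor 2 (right). In tumor 2 *Csn3* runs from 4195 CPM under 10000 reads to 178 at 200000 to 400000 reads and 1045 above, while per 1000 spike-in reads it is lowest, at 0.294, in the shallowest wells.

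Levels were also followed over all wells by depth. In tumor 2 *Csn3* went from 4195 CPM in wells under 10000 reads through 3185, 645 and 229 to 178 in wells of 200000 to 400000 reads, then stood at 1045 above that, where 1 well held 8833 of 9220 reads. The bin of 10000 to 50000 reads rested on 1 well too. There the cell at K4 held 2040 of 2258 *Csn3*, 923 of 1185 *Lcn2* and 705 of 965 *Wfdc18* reads, so a steady fall with depth is not shown. The share of wells with a *Csn3* read was 33.3% in the shallowest bin and between 52.3% and 65.1% in the other 5. *Wfdc18* in tumor 2 ran from 2536 to 7.14 CPM and *Lcn2* from 3378 to 205, with *Lcn2* lowest, at 124, at 100000 to 200000 reads. In tumor 1 these genes showed no steady fall. From the shallowest to the deepest bin *Lcn2* took 493, 3.29, 388, 81.05, 42.6 and 97.8 CPM there, *Wfdc18* 274, 64.2, 730, 25.4, 6.39 and 9.40, and *Csn3* 1096, 145, 35.75, 41.4, 21.8 and 573. In tumor 1 the cell at P7 held 1985 of 2001 *Wfdc18* and 922 of 1064 *Lcn2* reads of the bin of 50000 to 100000 reads. Of the *Csn3* reads above 400000 reads, 1 cell held 4137 of 4205. *Spp1* in tumor 1 stood at 219 CPM under 10000 reads and 7720 above 400000 reads, while in tumor 2 it took 1939, 2416, 5253, 603, 3255 and 1463 CPM from the shallowest to the deepest bin, with no single direction. The share of wells with a *Spp1* read ranged from 36.4% to 86.7% over the same bins of tumor 1 and from 66.7% to 94.1% in tumor 2.

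Within the vascular CAF-like cells, cells above (RNA-poor) and below (RNA-rich) the median spike-in share of their tumor were compared in the same way. None of 12627 genes passed (0%, edgeR adjusted p of 0.05), with 893 at an unadjusted p under 0.05, and DESeq2 called 139. *Csn3* differed by 0.70 on the log2 scale (SE 0.74, edgeR adjusted p = 0.908), *Wfdc18* by 0.80 (SE 0.77, edgeR adjusted p = 0.892), *Lcn2* by 0.75 (SE 0.98, edgeR adjusted p = 0.941) and *Spp1* by -1.88 (SE 0.83, edgeR adjusted p = 0.707). With the tumor as a block *Spp1* stood at -1.97 (edgeR adjusted p = 0.0888) and was not called either. *Csn3* was read in 20.2% of RNA-poor and 26.2% of RNA-rich cells in tumor 1 and in 56.0% and 53.4% in tumor 2. No member was called in this fit. With the spike-in totals as library size, where the median over all genes was -1.10, *Spp1* (log2 fold change -3.04, edgeR adjusted p = 0.0397) was called lower in RNA-poor cells, and *Csn3*, *Wfdc18* and *Lcn2* were not called. *Ltf* was called too (edgeR adjusted p = 0.0295), with 0 reads in RNA-poor cells, so no fold is given for it. The values depended on how the cells were split: with a split at the median of reads in place of the spike-in share, *Spp1* stood at -0.098, *Lcn2* at 1.64 and *Wfdc18* at 1.53, and no member was called (edgeR adjusted p = 0.9997 for each).

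The ratio of the members to each other was not constant over the classes of wells. Reads of *Csn3* per read of *Lcn2* were 2.06 and 1.31 in vascular, 0.807 and 1.38 in matrix, 1.00 and 0.387 in cycling, 1.01 and 2.00 in developmental cells and 2.22 and 1.24 in low-read wells. *Wfdc18* per *Lcn2* was 0.860 and 0.492 in vascular, 0.442 and 0.328 in matrix, 0.470 and 0.147 in developmental cells and 0.556 and 0.751 in low-read wells. The first ratio thus ranged more than 2-fold over the classes of each tumor, although the low-read wells of tumor 1 held only 38 member reads. Several ratios rested on single wells. The low-read wells of tumor 1 had 0 *Csn3* and 0 *Lcn2* reads without the well with most *Csn3* reads, and 1 and 0 of *Wfdc18* and *Lcn2* without the well with most *Wfdc18* reads, and *Csn3* per *Lcn2* in cycling cells of tumor 1 was 0.654 without 1 well. Without the well with most *Csn3* reads of each tumor, *Csn3* per *Lcn2* in developmental cells was 0.0403 (144 and 3578 reads) and 1.25. Without the well with most *Wfdc18* reads, *Wfdc18* per *Lcn2* in developmental cells was 0.00181 (6 and 3313 reads) and 0.0785.

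Members were only weakly found together. Over kept cells (369 and 344), Spearman's rho was 0.138 and 0.223 between *Csn3* and *Lcn2*, 0.117 and 0.140 between *Csn3* and *Wfdc18* and 0.137 and 0.170 between *Wfdc18* and *Lcn2*, and 0.0390 and 0.126 between *Csn3* and *Spp1*. Cells of a tumor share their plate and differ in depth, and in counts this sparse such values are descriptions. *Lcn2* and *Mia*, a marker of the developmental cells, stood at 0.265 and 0.348 over all kept cells and at -0.0459 and 0.0619 within the vascular cells.

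By the smaller of the 2 tumors' correlations over 11321 genes, the genes most like *Lcn2* were *Tfap2b* (0.32 and 0.363), *Sox9* (0.299 and 0.299), *Col4a6*, *Eps8l2* and *Mia*. Those most like *Spp1* were *Tpbg* (0.445 and 0.425), *Cdh11* (0.43 and 0.418), *Olfml3*, *Ociad2* and *Aebp1*. For *Ltf* the nearest was *Krt8*, a luminal keratin (0.212 and 0.218), and for *Wfdc18* it was *Herc4* (0.164 and 0.150), with *Lcn2* and *Krt18* among the 5. For the summed milk genes the nearest was *Mia* (0.218 and 0.298), with *Lcn2* among the 5.

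Among 20 other milk and lactation genes, 19 had a read in kept cells and *Glycam1* had none. *Trf*, transferrin, also a marker that named the population, took 14236 and 7476 CPM in developmental cells against 5.83 and 43.6 in vascular cells. *Aldoc*, aldolase C, took 3512 and 914 against 1.69 and 4.28, and *Mfge8*, a milk fat globule protein, 5384 and 3833 against 1554 and 1289. In tumor 1 the cell at C11 held 22792 of 37516 *Trf* and 5444 of 9255 *Aldoc* reads of the developmental cells, and without it *Trf* stood at 6441 CPM and *Aldoc* at 1667. *Plin2*, a lipid droplet coat protein, took 124 and 88.1 against 152 and 139, so not every gene of the list was higher in the developmental cells. The list summed to 23391 and 12426 CPM in developmental cells, or 14057 and 11781 without the well with most of its reads, and to between 1412 and 1859 in the other 3 populations. Most of the developmental sums, 14236 and 7476 CPM, came from *Trf*, which helped to name the population, so the difference of the sums was partly set by the naming.

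All 15 genes of the prolactin and lineage regulator list had reads in kept cells. Its 4 highest members by mean log2(RPKM + 1) over all kept cells were read in both developmental and vascular cells: the glucocorticoid receptor gene *Nr3c1* stood at 114 and 205 CPM in developmental and 286 and 355 in vascular cells, *Jak2* at 48.9 and 30.7 against 81.5 and 127, *Cebpb* at 98.3 and 135 against 76.0 and 50.6 and *Socs2* at 97.9 and 50.5 against 34.9 and 13.6. Lower by that mean, and named after their values were seen, *Gata3* stood at 251 and 229 against 2.19 and 1.26, *Elf5* at 1.90 and 13.5 against 1.36 and 2.01, and *Prlr*, the prolactin receptor gene, at 0 and 25.8 against 0.0961 and 1.01. *Gata3* was above those 4 genes in the developmental cells of both tumors. Without the well with most reads of each gene *Gata3* stood at 183 and 216 CPM there, *Elf5* at 0 and 5.72, *Prlr* at 0 and 7.49, *Jak2* at 21.4 and 21.3 and *Nr3c1* at 53.9 and 181.5. In vascular cells *Gata3* stood at 1.04 and 0.753 without such a well and *Elf5* at 0.697 and 1.21.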

How the data were processed

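Single-end reads of 43 bp from each well were aligned by the authors to mm10 with STAR, counted on RefSeq genes, and deposited as raw counts per gene and well. RPKM values, which divide reads by gene length and library size, were also made by the authors, with rpkmforgenes, and deposited as a second table. Wells were assigned to tumor and plate position from the labels. The 9 members, the marker lists and the tests were chosen with earlier results of these data known, and all 9 members are named. Of other genes, the text draws on the 5 most like *Wfdc18*, *Lcn2*, *Ltf*, *Spp1* or the milk sum by Spearman correlation and on up to 4 of each list with the highest mean log2(RPKM + 1) over kept cells. *Gata3*, *Elf5*, *Prlr*, *Perp*, *Krt5*, *Lrp2*, *C3*, *Cxcl5* and the marker genes given at 0 were named outside this rule, after their values were seen.

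A well was left out where at least 2 of 5 quality metrics lay over 2 SD on the poor side. Kept cells were embedded with Rtsne 0.17 on 557 variable genes without the members and clustered by DBSCAN (scikit-learn 1.9.0). Shares have exact 95% binomial intervals (scipy 1.17.1), and thinning used the exact chance of a read in 50000 reads drawn without replacement. Levels are log2(RPKM + 1) or summed reads as CPM. Counts summed per tumor were tested with edgeR 4.0.16 (TMM, quasi-likelihood test, Benjamini-Hochberg adjustment), after a test on simulated data, and with DESeq2 1.42.0 as an alternative, in R 4.3.3. P-values measure the spread between 2 tumors. Both kinds of summed library came from the same animals and plates, which is where the pairing comes from. The deviations of libraries of 1 tumor correlated at 0.0419 over genes for low-read and kept wells and at 0.188 for RNA-poor and RNA-rich cells. Values without *Epcam* wells, without the highest well of a gene, list or ratio, by plate line of high *Spp1* wells and over all genes with a well of 5000 reads were chosen after seeing the data. No 2 wells held identical counts.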

Additional observations from a re-analysis of the deposited data

Results flagged for a closer look

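*Ltf* moved in opposite directions in the 2 tumors: its CPM in vascular CAF-like cells were 0.165 times those of the other kept cells in tumor 1 and 1.21 times in tumor 2. The difference between the tumors was not tested, and it rests on 4 and 8 wells with a read.

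The 14 wells left out for quality although they held over 10000 reads also had member reads. In the 10 such wells of tumor 2, *Wfdc18* stood at 1134 CPM, *Csn3* at 715, *Lcn2* at 603, *Spp1* at 139.7 and *Lalba* at 83.8. In the 4 such wells of tumor 1, *Wfdc18* stood at 159 CPM. These wells enter no population, and a count of 0 would have allowed less than each of these values.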

How the results depend on the processing

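With 2 tumors, few reads in the low-read wells and no molecular identifiers, calls on the members depended on the tool and the scale, and the causes were not tested beyond the settings named.

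Between low-read wells and kept cells 28 genes were called by edgeR with TMM scaling, against 8 with DESeq2 size factors, 878 with DESeq2, 91 without a filter on genes, 13235 with spike-in totals as library size, 287 with a limit of 5000 reads and 44 with a limit of 20000 reads. With the tumor as a replicate block 0 genes were called. *Lalba* was called without the filter and at both other limits, and *Wfdc18* at the limit of 5000 reads. With spike-in totals the log2 fold changes of *Csn3* (-3.18), *Lalba* (-0.93), *Wfdc18* (-1.62) and *Lcn2* (-2.88) turned, and edgeR called *Csn3*, *Lcn2*, *Spp1*, *Csn1s1* and *Ltf*, the last 2 with 0 reads in low-read wells, at adjusted p from 0.00164 to 0.0425. The DESeq2 value of *Ltf* was 2.27 with 0 reads in low-read wells, which gives no direction, and *Spp1* turned to 0.085 with DESeq2, and *Spp1* to 0.26 at the limit of 5000 reads and 2.15 against vascular cells only. Leaving out 1 tumor gave -3.98 to 6.67 for *Lalba*, -3.40 to 0.36 for *Spp1*, 2.54 to 6.38 for *Wfdc18* and 2.46 to 4.82 for *Lcn2*, the lower value of each without tumor 2. These values are differences of log2 CPM with a small count added, and not fitted. The lower value of *Lalba* is set by that added count over 0 reads and is no bound. Those of *Wfdc18* and *Lcn2* rest on 1 low-read well of tumor 1.

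For RNA-poor against RNA-rich vascular cells 0 genes were called by edgeR, 139 by DESeq2, 6 without the filter and 4897 with spike-in totals, where *Csn1s1* (-0.39), *Csn3* (-0.46), *Wfdc18* (-0.38) and *Lcn2* (-0.43) turned and the median of all genes was -1.10. There edgeR called *Spp1* (adjusted p = 0.0397) and *Ltf* (adjusted p = 0.0295, 0 reads in RNA-poor cells). With a split at the median of reads 0 genes were called, and *Spp1* stood at -0.098, *Ltf* at -0.27, *Lcn2* at 1.64, *Wfdc18* at 1.53 and *Lalba* at 3.08. Leaving out 1 tumor gave -1.56 to 3.54 for *Csn1s1* and -0.31 to 1.70 for *Lalba*. The replicate block changed no other call.

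Wells with a milk gene made up 20.1% of tumor 1 and 46.4% of tumor 2 when 5 reads were required, and 22.1% of tumor 1 after thinning. The *Wfdc18* difference of developmental CAF-like cells turned to -0.38 without *Epcam* wells and -0.14 without the highest well. That of *Spp1* in matrix cells was 3.34 with a pseudocount of 10, and the *Spp1* share of member reads there was 96.2% without the 3 wells with most member reads. For *Lcn2* in developmental cells, the difference was 8.16 in tumor 1 and 4.97 in tumor 2.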

Other observations

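Receptors of 2 members were read in these cells, though not each gene in every population. All 9 genes of the list had reads in kept cells, and their sum lay between 2064 and 3771 CPM over the 4 populations and both tumors. *Itgb1*, an integrin beta chain and the highest of the list, stood at 1161 and 1035 CPM in developmental and 2511 and 1962 in vascular cells, *Itgb5* at 761 and 780 in matrix cells, *Cd44* at 414 and 369 in vascular cells and *Itgav*, a partner chain of the osteopontin receptors, at 402 and 474 in developmental cells. *Lrp2*, which encodes megalin, an uptake receptor of lipocalin 2, was nearly absent, at 0.178 CPM or less in any population.

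Of 12 acute-phase and NF-kappaB genes that are often induced with *Lcn2*, all had reads in kept cells. The list summed to 1877 and 161 CPM in developmental and 497 and 318 in vascular cells, so its direction differed between the tumors. Without the well with most of its reads it summed to 1158 and 141 in developmental and 435 and 263 in vascular cells. *Cxcl1* stood at 325 and 167 CPM in vascular and 1.14 and 4.62 in developmental cells, *Il6* at 88.8 and 60.6, or 48.1 and 31.6 without the well with most of its reads, against 0.380 and 0, and *Nfkbiz* at 82.6 and 79.8 against 27.3 and 114. Without the well with most of its reads *Nfkbiz* stood at 77.8 and 73.5 in vascular and 11.8 and 90.6 in developmental cells. *Slpi*, a secreted protease inhibitor, was the one of the 4 highest genes that stood above the vascular level in developmental cells of both tumors, at 1796 and 24.5 in developmental against 0.385 and 0.441 in vascular cells. Without the well with most of its reads it stood at 1069 and 13.6 in developmental cells. *C3* (33.8 and 2.49 against 0.0961 and 0.683) and *Cxcl5* (13.3 and 12.4 against 0.0192 and 0.286), named after their values were seen, also stood above the vascular level in both tumors, on single wells, since without 1 well each the developmental values were 4.72 and 0.359 for *C3* and 0 and 0.183 for *Cxcl5*. Both were highest in matrix cells, at 122 and 229 and at 57.4 and 21.4, or 45.0 and 131 and 21.1 and 13.9 without the well with most reads of each.

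Of 8 osteogenic genes that are often seen with *Spp1*, 7 had reads and *Mepe* had none. *Mgp*, matrix Gla protein, led the list at between 4389 and 8744 CPM in every population. *Dmp1* stood at 169 and 69.1 in vascular against 3.26 and 1.81 in matrix cells, unlike *Spp1*, and *Runx2* at 96.0 and 133 in matrix against 47.8 and 61.5 in vascular cells. *Bglap*, osteocalcin, stood at 917 and 137 in developmental cells, or 321 and 80.99 without the well with most of its reads, and at 0.132 or less in the others.

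Myoepithelial markers had reads for 8 of 8 genes, and *Acta2*, which contractile vascular cells also make, led their sum at 5137 and 3995 CPM in vascular and 897 and 1148 in developmental cells. Without the well with most of its reads *Acta2* stood at 4931 and 3817 in vascular and 513 and 978 in developmental cells. *Krt5*, a basal keratin named after its values were seen, stood at 895 and 22.2 in developmental cells, or 512 and 9.18 without the well with most of its reads. In vascular cells it stood at 0.827 and 0.0220, or 0.0194 and 0 without such a well. Of 6 endothelial markers *Emcn* alone was above 5 CPM in any kept population, at 105 and 195 in vascular cells, and of 5 adipocyte markers 2 had a read, with sums of 0.0472 CPM or less.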
